A study of Mus musculus with 20 samples.

Results

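The comparison described here set the dorsal skin of 5 mice that received IL-23 and then the oligonucleotide IMO-3100 against the dorsal skin of 5 naive mice, to show what was still changed in spite of the antagonist. The members were the 10 arrays whose labels carry the treatment IMO-3100 or the condition naive or normal skin, out of 20 arrays in 4 groups of 5. All mice were C57BL/6, and per the study's methods they were female, bought at 6 weeks of age and housed for 1 week. The IMO-3100 mice (numbered 6 to 10) had 3 µg of IL-23 a day injected into the dorsal skin on days 1 to 4 and IMO-3100 at 15 mg/kg under the skin, away from that site, on days 4, 5 and 6. Skin was collected on day 7. The naive mice (numbered 16 to 20) were given neither agent, and whether they had a sham injection is not stated in the sources used here. The saline mice (11 to 15) had IL-23 followed by saline, so the IMO-3100 and saline groups differ in the antagonist alone by design. Between naive and IMO-3100 skin, IL-23 and any effect of injection cannot be told apart. The IMO-8400 mice (1 to 5) had IL-23 followed by a second antagonist at the same dose; saline and IMO-8400 mice serve here only to place the residual change. Each array holds the RNA of 1 mouse, so the spread between arrays is a spread between animals.

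IL-23 keeps Th17 cells and other IL-17-producing lymphocytes active, and IL-17 in turn drives keratinocytes to release chemokines, antimicrobial proteins and IL-36 cytokines and to divide. TLR7, TLR8 and TLR9 are receptors for nucleic acids inside endosomes of dendritic cells, macrophages and B cells, and they signal through MyD88 to NF-κB and to type I interferon. IMO-3100 blocks TLR7 and TLR9, and IMO-8400 blocks TLR8 as well. Inflamed skin of this kind holds incoming neutrophils, monocytes and lymphocytes as well as a thickened epidermis, and full-thickness mouse skin also holds hair follicles, fat and muscle.

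All levels below are log2 intensities of Affymetrix probe-sets, and a fold change (FCH) is given on the linear scale. A differentially expressed gene (DEG) had a false discovery rate (FDR) under 0.05 and an FCH over 2. The deposited values have their floor near 2. A group whose 5 arrays all lay under 3 was read as near background, and the FCH then became a lower bound ("at least") computed with the dim group set to 3. The basal keratinocyte list, which includes the keratins of the deepest epidermal layer, lay at 12.11 to 12.60 in naive and 12.03 to 12.23 in IMO-3100 mice, and the skeletal muscle list at 12.87 to 14.10 and 13.25 to 13.64, so both groups gave full-thickness skin. Naive skin was not uniform. Correlations between naive arrays ran from 0.912 to 0.989, against 0.988 to 0.994 between IMO-3100 arrays. Naive mouse 16, and less so mouse 17, carried the highest hair follicle genes and the lowest immune genes. The total counts and part of the list counts are given with and without them. A list count without such a second value is not to be read as independent of these mice.

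In all, 1516 probe-sets (1000 genes) were DEGs with higher levels in IMO-3100 skin than in naive skin, and 1408 (891 genes) were DEGs with lower levels, which is 4.9% and 4.55% of the 30960 probe-sets tested. The 2 groups did not overlap in 16.2% of all probe-sets tested, and in 1159 of the 1516 higher and 871 of the 1408 lower DEGs. Saline skin had more DEGs against the same naive arrays, with 2346 higher (7.58%) and 2762 lower (8.92%). Of these IL-23 DEGs, 1141 were still higher and 1111 still lower after IMO-3100, counts that share the naive arrays. Against saline skin itself, IMO-3100 skin had 833 DEGs with higher levels (2.69%) and 1155 with lower levels (3.73%). Among the 1141 probe-sets still higher, 955 were no DEG between IMO-3100 and saline, 170 were lower than in saline and 16 were higher than in saline. Among the 1111 still lower, 1012 were no DEG against saline, 98 had moved towards naive and 1 lay further away. Where saline levels were near the floor, little room was left to lie further away. A further 371 probe-sets were higher and 297 lower than naive in IMO-3100 skin without being IL-23 DEGs, and 74 of each set were DEGs against saline in the same direction. Conversely, 1205 of the higher IL-23 DEGs and 1647 of the lower were no longer DEGs after IMO-3100, and 584 and 484 of these were DEGs between IMO-3100 and saline. Without naive mice 16 and 17, 1044 probe-sets were higher and 1283 lower, and 757 and 1002 of the IL-23 DEGs were still changed. With the mean of the hair genes of each array as a covariate, a setting applied to the gene lists after the data had been seen, 805 were higher and 1158 lower. The median change over all tested probe-sets was -0.05 on the log2 scale.

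**Figure D1:**
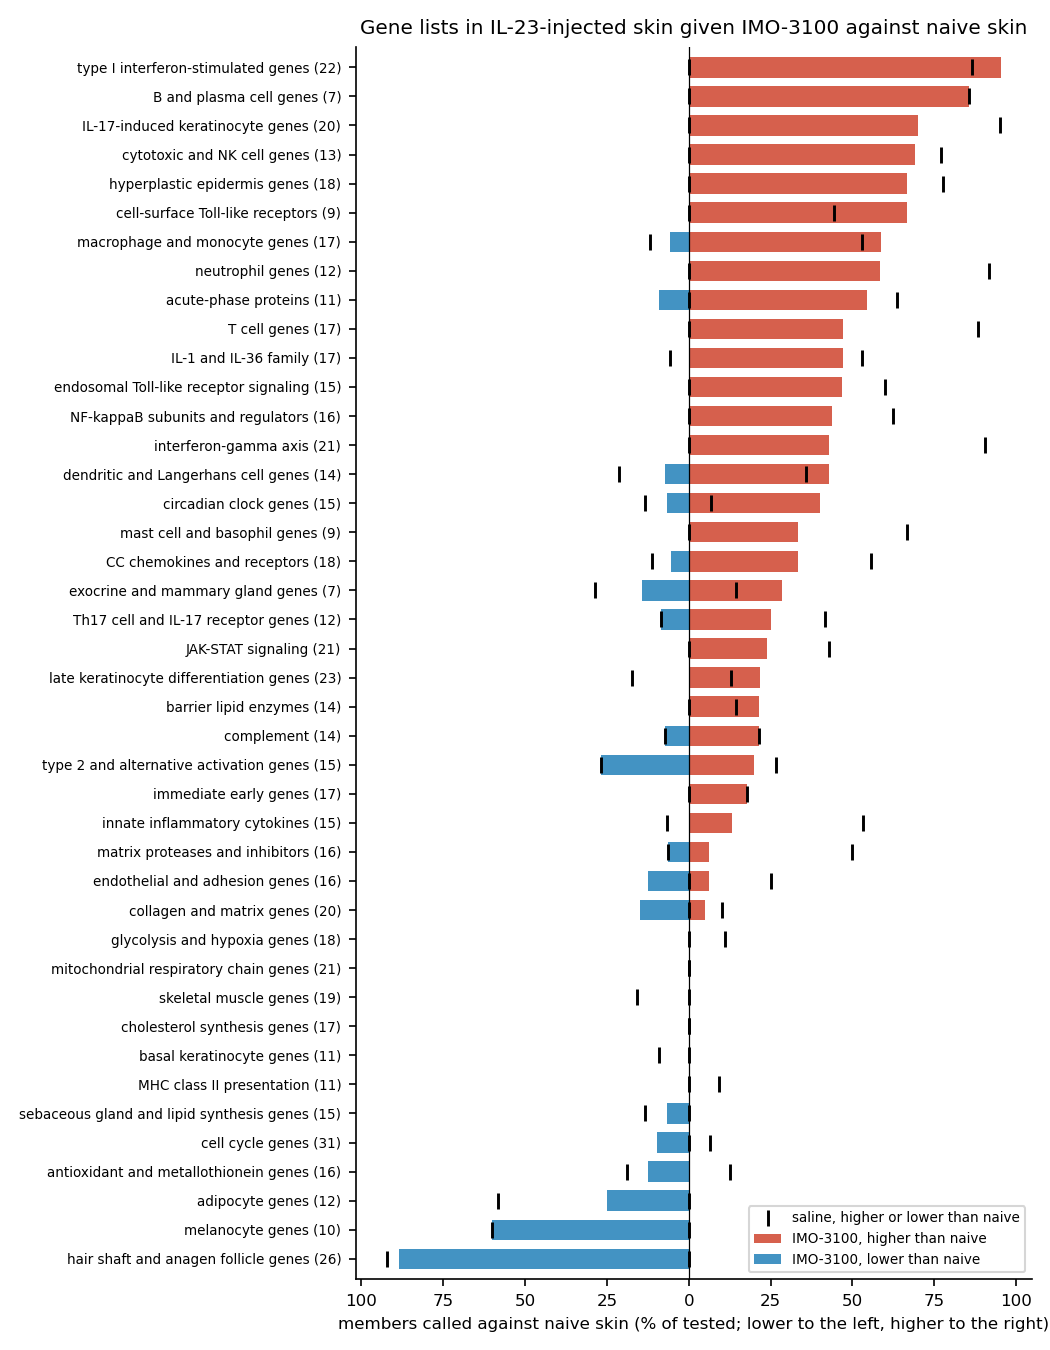
Share of each gene list's tested members (number in brackets, lists with at least 5) that were DEGs of IMO-3100 skin over naive skin, with higher members to the right in red and lower members to the left in blue; black ticks mark the same shares for saline skin. Type I interferon, B cell and IL-17-induced keratinocyte genes lead the higher side with 21 of 22, 6 of 7 and 14 of 20 members, and 23 of 26 hair genes lead the lower side.

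Macrophage genes and a part of the neutrophil list were among the largest residual rises. In the macrophage and monocyte list, 10 of 17 tested genes were higher and 1 was lower than in naive skin (median 1.71 on the log2 scale). Over all 13909 genes tested, 5.7% were higher and 4.82% lower, and every list count against naive below is to be read beside these shares. None of the 17 was a DEG between IMO-3100 and saline. Marco, a scavenger receptor of macrophages that binds bacteria, had the largest rise among genes with non-overlapping groups and both means at or above 3. Its level was 3.38, 3.51, 3.59, 2.31 and 2.88 in naive mice 16 to 20 and 13.15, 12.81, 12.60, 12.77 and 12.35 in IMO-3100 mice 6 to 10. The highest naive mouse lay more than 8 log2 units below the lowest treated mouse, and the FCH was 777 (log2 9.60 ± 0.38 SE, FDR 1.4e-11). Saline mice lay at 11.71–13.58, and the log2 difference of IMO-3100 from saline was 0.08 ± 0.38 (FDR 0.93). Acod1, which makes the antimicrobial metabolite itaconate in activated macrophages, was near background in every naive mouse (2.04) and at 9.30, 11.78, 11.65, 11.37 and 11.76 with IMO-3100, at least 288-fold higher. IMO-3100 mouse 6 was the lowest of its group for Acod1. Fcgr4, an activating Fc receptor for IgG, rose 16.7-fold from 5.98–11.07 to 13.02–13.76, with no overlap. Siglece, an inhibitory sialic-acid receptor of myeloid cells, rose 67.6-fold from 3.58–6.86 to 11.04–12.22. Itgam and Msr1, the integrin CD11b and a scavenger receptor, rose by 7.56 and 5.65 times, but naive mouse 19 reached the range of treated mice for both. Leaving out naive mice 16 and 17 gave 8 of the 17 genes higher and 2 lower, and the list median dropped to 0.66. The macrophage list mean ran in naive mice 16 to 20 as 8.71, 10.04, 10.94, 11.07 and 11.50, the reverse of their hair list, and in IMO-3100 mice it stood at 12.13 to 12.32, above every naive mouse. With the hair list mean as a covariate 2 of 17 were higher and 2 lower, with a median of 0.28. Bulk RNA cannot tell more cells of a type from more RNA per cell.

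Neutrophil genes were split. In saline skin 11 of the 12 tested were DEGs above naive, and 7 of these were still DEGs with IMO-3100. All 5 IMO-3100 mice lay near background for 4 of the 12. The genes named here do not cover the list, and a division by gene function was not tested. Of 12 neutrophil genes tested, 7 were higher and none lower than naive, and 5 were DEGs with lower levels than saline. The list median was 2.65 on the log2 scale. With near-background groups at 3 it was 3.61, but that median leaves out genes near background in both groups. Clec4d, a C-type lectin receptor for mycobacterial glycolipid, stood at 4.00, 6.36, 4.99, 9.17 and 8.44 in naive mice and at 12.32, 13.59, 13.60, 13.38 and 13.88 in IMO-3100 mice. Every treated mouse exceeded every naive mouse, the FCH was 109 (FDR 3.17e-06), and the difference from saline was -0.27 ± 0.69 on the log2 scale (FDR 0.831). Its partner Clec4e (Mincle) was at 2.02, 2.02, 2.03, 4.50 and 2.07 in naive mice and 5.34, 10.06, 10.27, 9.49 and 10.17 in IMO-3100 mice, a 92.9-fold rise with IMO-3100 mouse 6 and naive mouse 19 standing apart from their groups. Fpr2, a formyl-peptide receptor that guides neutrophils, rose 52.5-fold to a narrow 13.10–13.31 from 4.27–10.46. Csf3r, the G-CSF receptor, rose 19.7-fold from 2.10–6.67 to 8.47–9.06. In contrast, Mmp8, the neutrophil collagenase, was at 2.02 in IMO-3100 mice and 2.02 in naive mice, against 4.96–7.60 in saline mice (IMO-3100 over saline FDR 4.18e-07). Cd177, a surface antigen of blood neutrophils, likewise lay at 2.02 after 3.15–7.38 with saline (FDR 0.000108). The count of higher neutrophil genes was also 7 without naive mice 16 and 17, and 6 with the hair covariate.

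Chemokines for leukocytes, and acute-phase genes, stayed up in part. Of 18 CC chemokine and receptor genes, 6 were higher and 1 lower. Ccl3, a chemokine that attracts monocytes and T cells, was at 2.20, 2.18, 2.20, 3.32 and 3.98 in naive mice and 11.80, 12.13, 11.12, 10.93 and 11.52 in IMO-3100 mice, a 422-fold rise that took every treated mouse above 10. Ccl4, a related chemokine, rose 140-fold from 2.98–4.14 to 10.05–11.65. Ccl5, a T cell and monocyte chemokine, rose 26.9-fold to 11.18–12.13, from 3.17–8.59 with naive mouse 16 lowest. None of these 3 was a DEG against saline (FDR 0.794, 0.583 and 0.127). Ccr1, a receptor for Ccl3 and Ccl5, was a DEG in saline skin at 7.74–10.14 but not in IMO-3100 skin, where it lay at 2.58–5.31 within the naive range of 2.06–8.60; without naive mouse 16 it was a DEG below naive. Of 11 acute-phase genes, 6 were higher and 1 lower. Saa3, a serum amyloid A made in inflamed tissue, was at 6.83, 6.65, 6.80, 7.35 and 8.99 in naive mice and 14.88, 15.00, 14.94, 14.91 and 14.91 in IMO-3100 mice. The treated mice differed by less than 0.2 log2 units among themselves, the FCH was 194 (FDR 1.4e-11), and saline mice lay at 15.01–15.18. Saa1, the circulating acute-phase form, rose 19.8-fold over naive but was 24.0-fold below saline (FDR 7.18e-05). Cp, which encodes the copper carrier ceruloplasmin, and Cfb, complement factor B, rose 4.12-fold and 3.91-fold without a called difference from saline. Outside these lists, Slc13a3, a dicarboxylate transporter, rose 145-fold and 37.7-fold on its 2 probe-sets, and Stfa2l1, of the stefin protease inhibitors of myeloid cells, rose 75.6-fold from 3.58–8.11 to 10.43–12.82.

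Antibody and B cell genes stayed high. In the B and plasma cell list 6 of 7 tested genes were higher than naive, none was lower and none was a DEG against saline (median 3.16, or 2.96 with near-background groups at 3). The 6 include Ighm, read from its brightest probe-set, although its probe-sets disagree, as given below. Jchain, the chain that joins IgM and IgA into polymers, was at 3.27, 5.23, 4.61, 4.05 and 4.36 in naive mice and 12.29, 11.39, 11.78, 11.89 and 11.54 in IMO-3100 mice. All treated mice exceeded all naive mice by more than 6 log2 units, and the FCH was 178 (log2 7.47 ± 0.56 SE, FDR 7.86e-08). In saline mice it was 12.40, 9.63, 9.17, 12.29 and 11.27, more scattered than with IMO-3100. Mzb1, a chaperone of antibody assembly, was near background in naive mice (2.02–2.87) and at 8.74–9.35 with IMO-3100, at least 66.7-fold higher. Cd79b, a signalling subunit of the B cell receptor, rose 38.9-fold from 3.43–6.63 to 9.80–10.78, and Ms4a1, which encodes CD20, was at least 5.49-fold higher at 4.81–6.47. The immunoglobulin light chain probe-set of Igk rose 93.4-fold to 13.53–13.90 from 3.15–8.68, with naive mouse 16 again lowest, and Iglv1 was at least 112-fold higher. A second probe-set of each of Igk and Iglv1 was no DEG. The probe-sets of Ighm, the IgM heavy chain, went opposite ways. The brightest was at 8.62, 9.90, 10.97, 10.80 and 11.06 in naive mice and 13.53, 13.21, 12.99, 13.22 and 13.22 in IMO-3100 mice, a 7.79-fold rise. A dimmer one was at 5.62, 7.02, 8.42, 8.61 and 8.89 in naive mice and 5.08, 3.01, 3.16, 3.27 and 3.16 in IMO-3100 mice, an 18.1-fold fall, and over its 8 probe-sets 2 were higher, 4 lower and 2 no DEG, so the array gives no single direction for Ighm. Pou2f2, the B cell transcription factor Oct-2, rose 45.1-fold over naive and was also 2.82-fold above saline (FDR 0.0337), with IMO-3100 mice at 9.68–10.72 and saline mice at 8.11–9.41. Igkv19-93, a light chain variable segment, was 2.77-fold above saline on the same test (FDR 0.0297). Leaving out naive mice 16 and 17 left 6 of 7 list genes higher, and 5 of 7 were higher with the hair covariate. Read from the probe-set of each gene with the largest SD, 5 of 7 were higher.

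**Figure D2:**
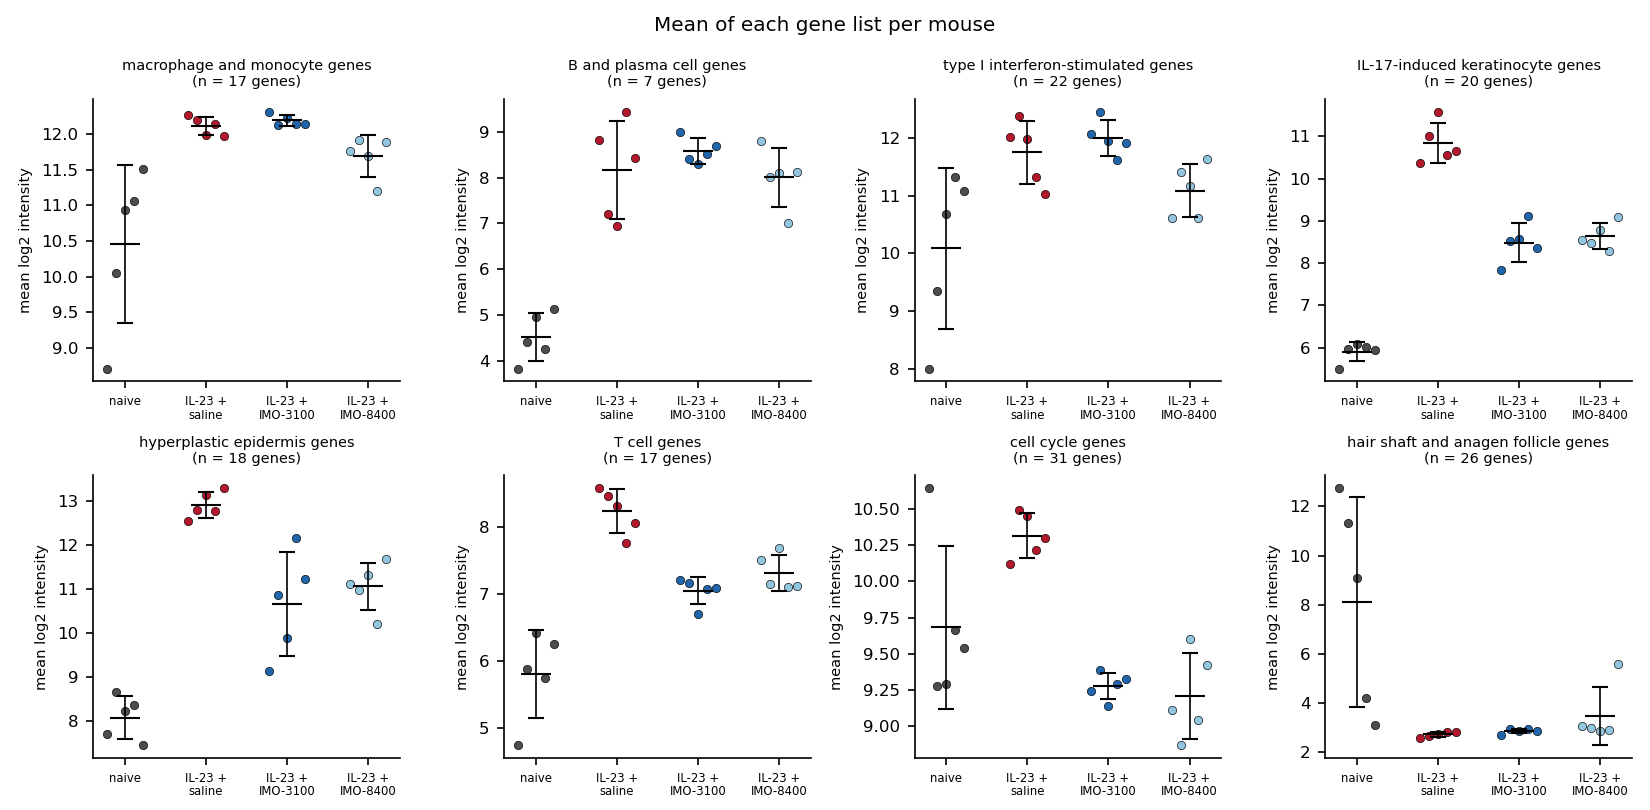
Mean log2 intensity of 8 gene lists in each mouse, with 5 mice a group; bars show the group mean and SD. B cell and macrophage means lay above every naive mouse with IMO-3100 as with saline, IL-17-induced keratinocyte and T cell means lay between naive and saline, and naive mice spread from 3.13 to 12.74 in hair genes while all 5 IMO-3100 mice lay near background.

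Genes induced by type I interferon, the cytokine that follows TLR7 and TLR9 triggering, were higher in 21 of 22 tested cases after IMO-3100 (median 1.99), and none of the 22 was a DEG against saline. Irf7, the factor that drives interferon-α transcription downstream of these receptors, was at 8.30, 8.67, 11.05, 11.22 and 11.25 in naive mice and 12.78, 13.31, 12.70, 12.33 and 12.75 in IMO-3100 mice, a 6.4-fold rise (FDR 0.00077). Naive mice 16 and 17 were lowest, and naive mice 18 to 20 lay higher but still below every treated mouse. Oas3, which makes the 2-5A activator of RNase L, was at 6.11, 7.55, 9.80, 11.15 and 11.03 in naive mice and 11.60, 12.29, 11.87, 11.20 and 11.80 in IMO-3100 mice, a 6.17-fold rise in which naive mice 19 and 20 stood just under the treated range. Oasl1, an inhibitor of Irf7 translation, rose 7.76-fold (FDR 0.0142), but naive mouse 19 overlapped treated mice. The RNA-binding antiviral Ifit1 rose 4.16-fold from 8.19–11.66 to 11.85–12.55, and Ifit3 3.61-fold from 9.77–13.06 to 13.51–14.20; both were chosen for the promoters shown after their values were seen. The list mean ran in naive mice 16 to 20 as 8.01, 9.35, 10.68, 11.32 and 11.07 and in IMO-3100 mice 6 to 10 as 12.06, 12.45, 11.94, 11.61 and 11.91. Every treated mouse exceeded every naive mouse, though naive mouse 19 and IMO-3100 mouse 9 lay close together. The count depended on the naive mice, since 8 of 22 were DEGs without mice 16 and 17, 16 of 22 without mouse 16 alone, and 0 of 22 with the hair covariate. The list median was 0.93 without mice 16 and 17 and 0.50 with the hair covariate. Oas3, Oasl1 and Ifit3 were among those without a call when mice 16 and 17 were left out.

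The promoters of Ifit1, Ifit3 and Oas3 are shown because these members rose together and carry an interferon-response-like motif. Each run is the 250 bases before the RefSeq start, GRCm38.p6, 5′ to 3′ on the gene's strand, with matches to GAAANNGAA on either strand in capitals; overlapping matches run together.
Ifit1: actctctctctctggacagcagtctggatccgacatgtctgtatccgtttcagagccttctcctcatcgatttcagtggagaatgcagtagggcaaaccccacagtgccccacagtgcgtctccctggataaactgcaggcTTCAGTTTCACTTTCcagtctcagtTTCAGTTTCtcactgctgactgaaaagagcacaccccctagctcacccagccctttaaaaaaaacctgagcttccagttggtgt
Ifit3: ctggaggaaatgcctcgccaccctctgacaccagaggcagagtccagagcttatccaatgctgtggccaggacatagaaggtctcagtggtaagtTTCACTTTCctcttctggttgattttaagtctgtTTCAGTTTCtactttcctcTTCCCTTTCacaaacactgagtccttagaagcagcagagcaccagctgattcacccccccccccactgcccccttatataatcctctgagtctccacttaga
Oas3: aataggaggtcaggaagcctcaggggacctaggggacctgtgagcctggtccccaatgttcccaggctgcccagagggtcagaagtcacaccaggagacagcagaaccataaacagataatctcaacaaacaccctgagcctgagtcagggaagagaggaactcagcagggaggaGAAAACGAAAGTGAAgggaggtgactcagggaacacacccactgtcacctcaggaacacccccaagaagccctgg
Ifit1 lies at chr19:34640639-34640888 on the plus strand with 3 matches, Ifit3 at chr19:34583279-34583528 on the plus strand with 3 matches, and Oas3 at chr5:120777660-120777909 on the minus strand with 2 matches. The motif was in 7 of the 14 type I interferon list promoters in the RefSeq table and in 7.16% of all 27025 promoters of this length.

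Some genes of Toll-like receptors and their signaling were higher too. In the endosomal Toll-like receptor list 7 of 15 genes were higher, none was lower and none was a DEG against saline, and in the cell-surface list 6 of 9 were higher. Tlr7, the single-stranded RNA receptor that IMO-3100 blocks, was at 5.29, 8.98, 9.36, 9.13 and 10.39 in naive mice and 11.36, 11.43, 11.25, 10.95 and 11.02 in IMO-3100 mice, a 5.95-fold rise (FDR 0.00519) with naive mouse 16 far below its group. Tlr13, a mouse receptor for bacterial ribosomal RNA, rose 23.7-fold from 3.62–8.98 to 10.79–11.57. Unc93b1, the protein that carries these receptors to the endosome, rose 5.22-fold from 6.35–10.31 to 10.86–11.61. Tlr8 was low throughout, at 2.02–4.36 in naive and 3.91–4.94 in treated mice, and rose 2.88-fold with overlapping groups, a call lost without naive mice 16 and 17; it too was named after its values were seen. Among surface receptors, Tlr1, Tlr2 and Tlr6, which pair to recognise bacterial lipoproteins, rose 12.0-fold, 6.41-fold and 4.74-fold, and their helper Cd14 rose 4.54-fold to 11.65–12.21. There were 5 of 15 endosomal and 4 of 9 surface list genes higher without naive mice 16 and 17, and 2 and 1 with the hair covariate.

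Interferon-γ and lymphocyte genes kept part of their rise. The interferon-γ list had 9 of 21 genes higher than naive against 19 of 21 in saline skin, and 8 were DEGs with lower levels than saline. Ifng itself was near background in naive mice (2.17–2.31), at 5.02–8.39 in saline mice and at 3.05, 4.47, 3.05, 2.92 and 3.73 in IMO-3100 mice. It was at least 1.36-fold higher than naive (FDR 0.0396) and 8.45-fold below saline (FDR 0.000119), but the call against naive was lost without IMO-3100 mouse 7 or 10 or without any single naive mouse. Tbx21, the Th1 transcription factor T-bet, was at least 3.25-fold higher at 4.11–5.27. Of the CXCR3 ligands, Cxcl10 kept a 5.23-fold rise (10.79–12.11 against 7.43–10.27), Cxcl9 lay at 8.46–10.78 without a call against naive (FDR 0.0562), and Cxcl11 was at background in all 5 treated mice (2.02–2.05) after 3.08–9.61 with saline. The count moved with the naive mice, with 5 of 21 genes higher without naive mouse 16 and 2 of 21 without mice 16 and 17. Of 17 T cell genes, 8 were higher than naive and 11 lower than saline. Cd4, the helper T cell co-receptor also found on some myeloid cells, was at 5.08, 6.73, 8.10, 5.08 and 9.43 in naive mice and 11.69, 11.48, 10.65, 11.19 and 11.06 in IMO-3100 mice, a 20.1-fold rise with no overlap, and the level after saline was 9.37–10.79. Cd8a rose 6.59-fold to 5.91–7.95 but stood 3.76-fold below saline (FDR 0.00568), and its partner chain Cd8b1 was at background in all treated mice (2.02–2.07). Cd4 and Cd8a each had other probe-sets that were no DEG. Icos, a costimulatory receptor of activated T cells, rose 6.79-fold from 3.48–7.80 to 8.67–9.69, with naive mouse 16 far below the rest, and was lower than in saline mice. Of 13 cytotoxic and NK cell genes, 9 were higher than naive and 6 were below saline. Gzmb and Gzma, the granzymes of killer cells, rose 23.9-fold and 18.0-fold, to 9.13–11.45 and 11.58–13.22, and neither was a DEG against saline (FDR 0.0513 and 0.413). Ncr1, the NK cell receptor NKp46, rose 6.17-fold and was 5.16-fold below saline. There were 6 of 17 T cell and 6 of 13 cytotoxic genes higher without naive mice 16 and 17, and 4 of each with the hair covariate.

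In the Th17 list 3 of 12 genes were higher and 1 lower. Il17a, which encodes IL-17A, was at background in all 5 IMO-3100 mice (2.02–2.03, against 2.02–2.03 in naive and 4.78–6.49 in saline mice), and IMO-3100 over saline gave a log2 difference of -3.68 ± 0.21 (FDR 3.65e-09). Il21r, a receptor of T cell growth, lay at 3.72–4.71 against 3.63–4.09 in naive mice, and was no DEG. Batf, a transcription factor needed for Th17 cells, was still 15.3-fold higher at 9.05–10.10 and not a DEG against saline (FDR 0.923). Ccr6, the Th17 homing receptor, and Il12rb1, the shared IL-12 and IL-23 receptor chain, kept rises of 3.35 and 2.05 times and were both below saline; Il12rb1 lost its call against naive without naive mice 16 and 17, and also without naive mouse 17, naive mouse 19 or IMO-3100 mouse 7.

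IL-17-induced keratinocyte genes lay between saline and naive skin. Of 20 tested, 14 were higher than naive (19 with saline), and 13 of these were DEGs in saline skin too. None was lower than naive, and 12 were DEGs with lower levels than saline. The median change was 2.24 on the log2 scale against 4.90 with saline. Defb3, a beta-defensin that kills microbes, was at 2.48, 2.25, 3.33, 2.26 and 2.41 in naive mice, 6.53, 8.26, 6.02, 10.98 and 8.99 in IMO-3100 mice and 11.98, 12.27, 13.29, 12.14 and 12.98 in saline mice. The 3 groups did not overlap, and Defb3 stood 48.8-fold above naive (FDR 3.95e-05) and 20.8-fold below saline (FDR 0.00054). Defb4, a second beta-defensin, was at background in 4 treated mice (2.04, 2.07, 2.07, 4.78 and 2.07 in mice 6 to 10) and was no DEG against naive. The calprotectin subunits S100a8 and S100a9 kept rises of 11.1 and 14.0 times, to 12.29–14.41 and 13.34–15.10, and S100a8 was a DEG below saline. Lcn2, which withholds iron from bacteria, went from 7.89–8.98 in naive to 10.97–12.16 in treated mice, a 9.15-fold rise at 5.83-fold below saline. Nfkbiz, the IκBζ cofactor of IL-17 signalling, rose 2.91-fold to 12.85–13.11 and was not a DEG against saline. In saline skin Il6, an inducer of Th17 cells, Il24, an IL-10 family cytokine of keratinocytes, and Cxcl5, a neutrophil attractant, stood at 7.36–10.36, 4.56–9.87 and 7.49–10.78, and in IMO-3100 skin they were at 2.02–2.03, 2.02 and 2.02–3.07, with naive skin at 2.02–2.35, 2.02 and 2.02. In this list 13 of 20 genes were higher without naive mice 16 and 17 and 11 with the hair covariate.

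The neutrophil chemokines Cxcl1, Cxcl2 and Cxcl3, which lie close together on chromosome 5, ended at different levels. Cxcl2 was at 2.02, 2.89, 2.89, 3.74 and 3.26 in naive and 7.30, 8.37, 9.71, 9.45 and 8.47 in IMO-3100 mice, a 52.0-fold rise without overlap (FDR 2.65e-07). Cxcl1 was at 2.54, 4.22, 3.28, 5.49 and 3.46 in naive mice and 7.19, 6.57, 7.91, 6.25 and 5.21 in IMO-3100 mice, a 7.1-fold rise (FDR 0.0014) in which naive mouse 19 overlapped the treated group. Cxcl3 was at background in all naive mice and in IMO-3100 mice 6, 7, 9 and 10 (2.02, 2.02, 6.23, 2.48 and 2.03 in mice 6 to 10), and was no DEG against naive (FDR 0.355). All 3 were DEGs with lower levels than saline (FDR 0.000153 for Cxcl1, 0.00177 for Cxcl2 and 0.00101 for Cxcl3). Their promoters are shown because all 3 hold the same NF-κB-like motif, GGANTTTCC, in capitals, while their residual levels differ.
Cxcl1: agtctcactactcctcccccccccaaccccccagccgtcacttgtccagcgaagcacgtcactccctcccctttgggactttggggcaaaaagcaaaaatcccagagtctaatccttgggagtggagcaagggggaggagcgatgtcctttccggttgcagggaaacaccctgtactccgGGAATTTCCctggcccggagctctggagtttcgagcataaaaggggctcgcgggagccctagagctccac
Cxcl2: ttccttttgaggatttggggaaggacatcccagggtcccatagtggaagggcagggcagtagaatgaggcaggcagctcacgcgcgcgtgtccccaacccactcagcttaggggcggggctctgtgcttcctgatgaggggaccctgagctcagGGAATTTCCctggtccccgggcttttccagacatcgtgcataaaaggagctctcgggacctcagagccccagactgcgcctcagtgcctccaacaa
Cxcl3: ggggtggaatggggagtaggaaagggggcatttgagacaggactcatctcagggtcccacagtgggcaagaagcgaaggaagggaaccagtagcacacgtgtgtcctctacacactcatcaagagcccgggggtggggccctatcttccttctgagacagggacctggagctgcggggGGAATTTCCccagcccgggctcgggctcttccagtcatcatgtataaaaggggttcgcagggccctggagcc
These are the 250 bases before each RefSeq start on the plus strand of GRCm38.p6, at chr5:90890995-90891244 for Cxcl1, chr5:90903649-90903898 for Cxcl2 and chr5:90785851-90786100 for Cxcl3, each with 1 match. The motif, searched on both strands, was in 3 of the 14 IL-17-induced list promoters in the table and in 1.05% of all 27025.

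IL-36 cytokines of the epidermis stayed high without a called difference from saline. Of 17 IL-1 and IL-36 family genes, 8 were higher than naive and none lower. Il1f6, which encodes IL-36α, was at 5.04, 7.95, 8.86, 8.14 and 7.17 in naive mice and 10.83, 11.89, 11.73, 12.67 and 12.11 in IMO-3100 mice, a 21.4-fold rise (FDR 7.09e-06). The 2 groups did not overlap, and the log2 difference from saline was -0.16 ± 0.49 with a 95% interval of -1.18 to 0.87. Il1f8 (IL-36β) rose 7.25-fold to 10.20–12.45, Il1f9 (IL-36γ) 2.81-fold to 10.13–12.41, and the receptor antagonist gene Il1f5 2.48-fold to 12.18–13.80, each without a called difference from saline (intervals -0.73 to 0.84, -1.31 to 0.43 and -0.50 to 0.52). The Il1f9 call was lost without naive mice 16 and 17. Within each of these 4 genes IMO-3100 mouse 6 was the lowest treated mouse and mouse 9 the highest. Il1b, the inflammasome-processed IL-1β, was both 9.26-fold above naive and 5.94-fold below saline (FDR 8.44e-05), at 11.52, 11.61, 10.40, 10.68 and 10.23. Osm, a cytokine of neutrophils and T cells, was no longer a DEG (3.26–3.98 against 2.02–5.18).

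Epidermal genes of the thickened state remained up in most cases. Of 18 hyperplastic epidermis genes, 12 were higher than naive, none was lower, and 10 were DEGs with lower levels than saline (median 2.30 against 4.17 with saline). Serpinb3a, a protease inhibitor of stressed squamous epithelium, was at 2.90, 4.18, 3.62, 4.12 and 4.23 in naive mice and 9.41, 10.16, 9.27, 11.30 and 10.90 in IMO-3100 mice. The groups lay at least 5 log2 units apart, and the FCH was 84.3 over naive and 6.34 below saline (FDR 0.000296). Lce3f, a late cornified envelope gene of repair, rose 66.5-fold to 10.48–13.65, Krt6b, a keratin of wounded epidermis, 39.8-fold to 8.96–13.15, and Sprr2d, a small proline-rich envelope protein, 23.7-fold to 10.52–13.74. Treated mice ranged widely in this list, whose mean was 9.13, 10.86, 9.88, 12.15 and 11.23 in mice 6 to 10 and 7.69, 8.65, 8.22, 8.36 and 7.45 in naive mice. Krt16, the partner of Krt6 keratins, rose 3.69-fold and was below saline, whereas Krt6a at 11.58–13.07 lay within the naive range of 10.97–13.35. The count was again 12 of 18 without naive mice 16 and 17, and 9 of 18 with the hair covariate. In the late differentiation list 5 of 23 genes were higher and none lower than naive, and 8 were above saline. Flg, which encodes filaggrin of the cornified layer, was at 11.91, 11.65, 11.52, 11.65 and 11.33 in naive, 12.50, 13.43, 13.07, 13.32 and 13.58 in IMO-3100 and 11.47, 11.59, 11.28, 12.03 and 12.10 in saline mice, so it was higher than both by 2.96 and 2.8 times (FDR 2.61e-05 and 8.51e-05). Lce1f, another envelope protein, was 2.9-fold above naive and 2.18-fold above saline. Hrnr, which encodes hornerin, and Rptn, which encodes repetin, rose 2.24-fold and 2.84-fold over naive, though Hrnr lost its call without naive mouse 16 and Rptn was called on 1 of its 3 probe-sets. Mt4, the metallothionein of stratified epithelium, was at 3.94–6.85 with saline and at 12.22–12.93 with IMO-3100, inside the naive 12.17–13.82. Il1f10 was at 4.44–9.28 against 8.39–10.38 in naive mice and 2.82–3.81 in saline mice, no DEG against naive (FDR 0.0548). Of 14 barrier lipid enzymes 3 were higher, namely Degs2, a sphingolipid desaturase (6.16-fold), Lipk, an epidermal lipase (3.12-fold), and Abca12, the lamellar granule lipid transporter (2.69-fold).

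**Figure D3:**
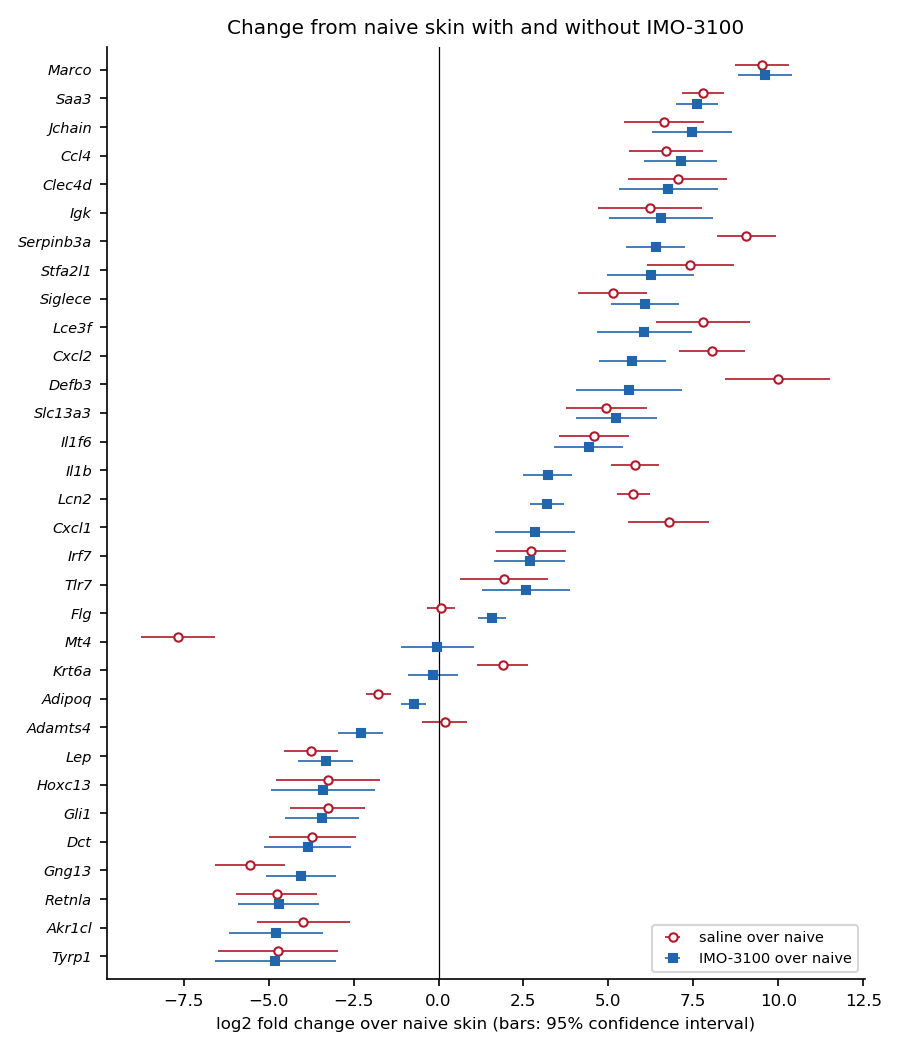
Log2 fold change over naive skin of 32 genes in IMO-3100 skin (blue squares) and in saline skin (open red circles), with 95% confidence intervals from the fit; each gene is shown by its brightest probe-set. Marco, Saa3, Jchain and Retnla stayed near their saline change, Defb3, Lcn2, Il1b and Cxcl1 lay between saline and 0, Mt4 and Krt6a were near 0, and Flg and Adamts4 lay away from 0 with IMO-3100 beside a saline change near 0.

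Hair and pigment genes had the most negative medians of all lists, -5.64 and -3.02 on the log2 scale, and their counts moved with the naive mice. The IMO-3100 group was near background for 21 of 26 hair genes, and with near-background groups at 3 the hair median was -4.67. Without naive mice 16 and 17 the medians, with no bound, were -2.53 for hair and -1.53 for pigment. Of 26 hair shaft and anagen follicle genes, 23 were lower than naive and none higher, and none was lower than saline. Saline mice had list means of 2.58 to 2.84, near the floor, so a further fall could hardly have been seen. Anagen is the growth phase of the follicle, and mice pass through it in waves. The list mean ran in naive mice 16 to 20 as 12.74, 11.33, 9.09, 4.21 and 3.13 and in IMO-3100 mice as 2.72, 2.94, 2.87, 2.97 and 2.88. All 5 treated mice lay near background, and naive mouse 20 stood just above them. Krt25, an inner root sheath keratin, was at 15.14, 14.90, 13.77, 10.04 and 5.67 in naive mice and 2.02 in every treated mouse, at least 479-fold lower. Krt27 and Krtap8-1, a root sheath keratin and a hair keratin-associated protein, were at least 181-fold and 176-fold lower, while Krt33a fell to background from 14.53, 13.54, 11.63, 4.39 and 2.02, with naive mouse 20 at background as well, and lost its call without naive mice 16 and 17. Hoxc13, the factor that drives hair keratins, fell 10.6-fold from 7.42–12.45 to 4.81–6.38, and Gli1, a hedgehog target of the growing bulb, 10.8-fold from 5.74–9.45 to 3.17–4.08. Krt32 was the exception against saline, at 6.59–8.00 with IMO-3100 and 3.33–4.36 with saline (FDR 0.00271), and was no DEG against naive. Without naive mice 16 and 17, 6 of 26 hair genes were lower and 1 was higher. With the hair covariate 1 was lower, but that covariate is the mean of 25 genes of this same list, so a drop in its calls was built in. Of 10 melanocyte genes 6 were lower and none higher. Tyrp1, an enzyme of melanin synthesis, was at 13.88, 11.89, 9.78, 8.47 and 8.29 in naive mice and 6.72, 6.10, 4.36, 5.39 and 5.71 in IMO-3100 mice, a 27.9-fold fall without overlap, and Dct, another enzyme of that pathway, fell 14.5-fold from 9.87–13.99 to 6.92–9.03. Without naive mice 16 and 17, 4 of the 10 were lower, and 2 with the hair covariate. In the means of both lists naive mice 16, 17 and 18 were highest in that order, and the part of hair growth in any other difference was not tested.

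Other falls were in genes of type 2 responses and fat. Retnla, a product of alternatively activated macrophages and fat (RELMα), was at 12.60, 14.60, 14.64, 14.67 and 14.54 in naive mice and 11.17, 7.87, 10.53, 8.51 and 9.44 in IMO-3100 mice, a 26.1-fold fall (FDR 1.67e-05). No treated mouse reached the lowest naive mouse, and saline mice stood at 8.81–9.89. Ccl24, an eosinophil chemokine, was near background in all treated mice (2.27–2.37), at least 9.11-fold below naive. Within the type 2 and alternative activation list 4 of 15 genes were lower and 3 higher, the latter including Chil3, a chitinase-like macrophage protein (13.0-fold with overlapping groups, and no DEG without naive mice 16 and 17), and Pdcd1lg2, which encodes the checkpoint ligand PD-L2 (14.6-fold without overlap). Of 12 adipocyte genes 3 were lower. Lep, which encodes leptin, was at 8.76, 8.89, 8.52, 9.43 and 8.51 in naive and 5.74, 5.55, 6.51, 5.00 and 4.68 in IMO-3100 mice, a 10.0-fold fall without overlap and without a call against saline (FDR 0.444). Plin4 and Cidec, lipid droplet proteins, fell 2.83-fold and 2.3-fold, and Adipoq, which encodes adiponectin, was 1.67 times below naive and 2.05 times above saline, under the FCH limit against naive. Akr1cl, an aldo-keto reductase, fell 27.8-fold from 8.65–10.27 to 3.21–6.04 on 1 of its 2 probe-sets. Gng13, a G protein subunit, fell 16.7-fold on 1 of 2 probe-sets, with treated mice spread over 2.19–5.02 and all above saline (2.03–2.08).

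The mast cell and basophil list had 3 of 9 genes higher. Fcer1a, the IgE receptor chain, rose 9.21-fold and Hdc, which makes histamine, 6.62-fold, both below saline, while Cma1, a mast cell chymase, rose 2.27-fold without a call against saline, and lost its call against naive without naive mouse 16. Mcpt8, a protease of basophils, was at background in IMO-3100 mice (2.05–2.36) after 6.37–9.38 with saline. In the dendritic cell list 6 of 14 genes were higher and 1 lower. Siglech, a receptor of plasmacytoid dendritic cells, was at 2.33, 5.47, 3.42, 3.11 and 5.11 in naive mice and 7.68, 6.32, 5.90, 6.16 and 5.73 in IMO-3100 mice, a 5.53-fold rise in which all treated mice exceeded all naive mice. Cd209a, a C-type lectin of monocyte-derived dendritic cells, fell 7.11-fold from 7.73–10.34 to 5.12–8.49. No member of the MHC class II list (0 of 11) was a DEG.

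Some genes lay further from naive skin with IMO-3100 than with saline. These were few: of the 30960 probe-sets tested, 94 (65 genes) were DEGs above both naive and saline, and 75 (62 genes) were DEGs below both. Scgb1b27, a secretoglobin secreted by glands, was at 2.03, 2.03, 2.44, 2.09 and 2.03 in naive mice, 2.44, 2.03, 2.44, 2.25 and 2.22 in saline mice and 9.22, 10.14, 8.51, 8.28 and 8.57 in IMO-3100 mice. All 10 mice without an antagonist were near background, so it was at least 61.5-fold above naive (FDR 1.36e-10), and the IMO-8400 mice had it at 9.07–10.84. Mybpc3, the cardiac form of myosin-binding protein C, was near background in naive mice (2.38–2.57) and at 8.12, 8.97, 5.98, 5.27 and 6.76 with IMO-3100, at least 16.2-fold higher, with saline mice at 2.78–3.08. Akr1d1, a bile acid and steroid reductase, was at least 6.18-fold above naive at 3.79, 6.28, 3.58, 7.09 and 7.40 on 1 of its 2 probe-sets. Rgn, which encodes the calcium-binding protein regucalcin, rose 18.2-fold over naive to 5.81–8.40, above every naive mouse and every saline mouse (4.66–5.78). Batf3, the factor for cross-presenting dendritic cells, rose 4.94-fold over naive and 2.67-fold over saline, with treated mice at 8.92–10.30. Atf3, a stress-induced transcription factor, rose 5.1-fold over naive and 2.13-fold over saline, at 13.09, 12.95, 12.21, 11.69 and 11.88.

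Some genes of matrix, vessels and dividing cells were lower than naive, and a part of these were also lower than saline. There were 3 of 20 collagen and matrix genes, 2 of 16 endothelial and adhesion genes and 3 of 31 cell cycle genes lower than naive, against 4.82% of all genes tested. Adamts4, a protease that cuts aggrecan and versican, was at 9.48, 9.39, 8.64, 10.39 and 9.35 in naive mice, 9.01, 9.69, 10.03, 9.20 and 10.24 in saline mice and 7.25, 7.14, 7.12, 6.46 and 7.80 in IMO-3100 mice. Both control groups lay above every treated mouse, with FCH of 4.91 against naive (FDR 6.27e-05) and 5.59 against saline (FDR 6.06e-05), and its second probe-set gave 6.52 and 8.64. Plod2, a collagen lysyl hydroxylase, fell 5.84-fold below naive and 3.81-fold below saline. Col12a1, a fibril-associated collagen, fell 3.06-fold below naive on 1 of 2 probe-sets, with naive mouse 16 highest and no call without mice 16 and 17. Spon1, a matrix protein, fell 2.76-fold on its brightest probe-set from 12.29–13.30 to 11.16–11.62. Plvap, the diaphragm protein of fenestrated endothelium, was at 9.45, 10.16, 10.44, 10.36 and 10.34 in naive, 9.85, 9.96, 9.95, 10.46 and 10.24 in saline and 9.11, 9.08, 9.18, 8.69 and 9.28 in IMO-3100 mice, an FCH of 2.12 below naive and 2.03 below saline with no overlap on either side; leaving out IMO-3100 mouse 9 removed the call against naive. Esam, an endothelial junction protein, and Acta2, the smooth muscle actin, fell 2.14-fold and 2.31-fold below naive without a call against saline. In the cell cycle list 15 of 31 genes were lower than saline. Aurka and Aurkb, the mitotic kinases, and Foxm1, their transcriptional regulator, fell 2.33-fold, 2.14-fold and 2.18-fold; naive mouse 16 was the highest of all naive mice for each, and none of these 3 was a DEG without it. Entpd3, an ectonucleotidase, was at least 6.28-fold below naive; it was highest in naive mouse 16.

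**Figure D4:**
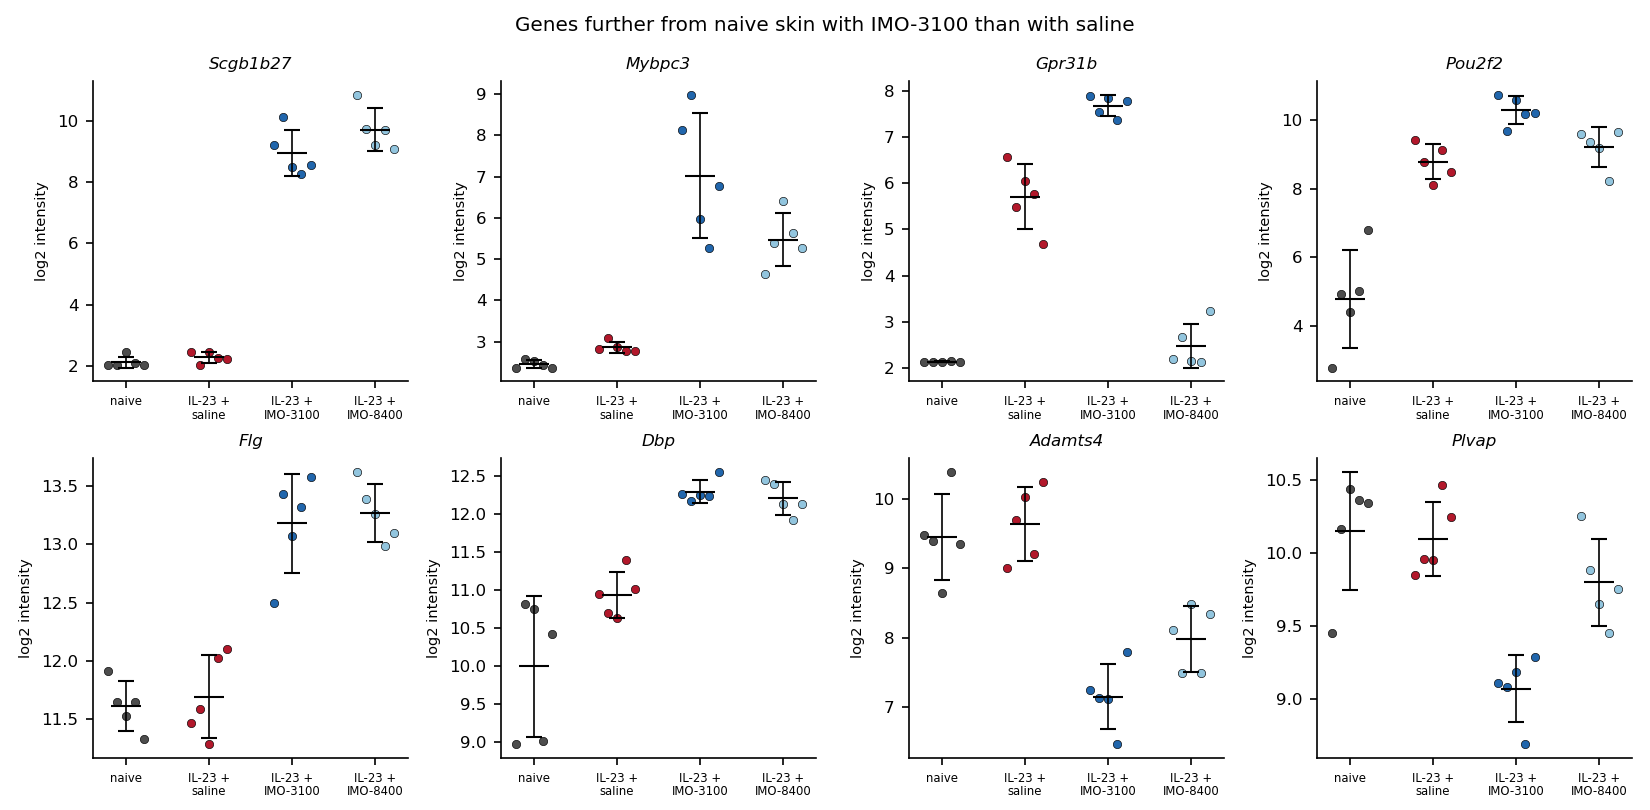
Log2 intensity of 8 genes in every mouse of the 4 groups, with bars for the group mean and SD. Scgb1b27, Mybpc3, Flg and Dbp were higher, and Adamts4 and Plvap lower, in all 5 IMO-3100 mice than in all naive and saline mice, and Gpr31b was high with IMO-3100 and at background in most IMO-8400 mice.

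Clock genes were also among those above saline. Of 15 tested, 6 were higher and 1 lower than naive, against 1 and 2 in saline skin, and 4 were DEGs above saline. IMO-8400 skin had 4 higher and 2 lower than naive, with a list median of 0.84 against 0.61 with IMO-3100. None of the 15 was a DEG between the antagonists. Dbp, a clock output factor, was at 8.97, 10.82, 10.75, 9.02 and 10.43 in naive, 10.96, 10.70, 10.64, 11.40 and 11.02 in saline and 12.26, 12.17, 12.26, 12.24 and 12.56 in IMO-3100 mice. Treated mice lay within 0.4 log2 units of each other and above all others, 4.92-fold over naive (FDR 3.96e-05) and 2.56-fold over saline (FDR 0.00364). Nr1d1, the repressor REV-ERBα, and Per1, a core negative regulator, rose 3.12-fold and 2.28-fold (no call for Per1 without naive mouse 19 or 20), and Npas2, a partner of BMAL1, fell 3.67-fold from 9.05–10.59 to 7.59–8.95 on 1 of 2 probe-sets. Hlf, a relative of Dbp, was lower than naive with saline (5.57–7.23) and was at 9.10–10.02 with IMO-3100, against 7.72–9.53 in naive mice. The sources used here do not state the hour of collection. The count of higher clock genes was 6 of 15 without naive mice 16 and 17, 4 of 15 without naive mouse 16, 19 or 20 alone and 5 of 15 with the hair covariate. Fos, an immediate early transcription factor, rose 2.74-fold to 12.31–13.64 and did not differ by a call from saline.

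The residue left by IMO-8400 was compared directly. Against the same naive arrays IMO-8400 skin had 1114 higher (3.6%) and 753 lower (2.43%) DEGs, and between the antagonists 76 probe-sets were higher (0.245%) and 103 lower (0.333%) with IMO-3100. Both were given at 15 mg/kg on the same days. Of the probe-sets that were DEGs against naive after IMO-3100, 49 higher ones were also higher, and 53 lower ones also lower, than with IMO-8400. Gpr31b, a G protein-coupled receptor for a lipid mediator, was at 2.13, 2.14, 2.14, 2.15 and 2.14 in naive mice, 7.89, 7.53, 7.84, 7.36 and 7.77 in IMO-3100 mice and 2.20, 2.66, 2.16, 2.14 and 3.23 in IMO-8400 mice. It was high in all IMO-3100 mice alone of these 3 groups, at a log2 difference of 5.20 ± 0.26 between antagonists (FDR 1.24e-09), with saline mice at 4.67–6.56. Lipg, endothelial lipase, was at 10.75, 11.96, 10.76, 10.66 and 10.71 with IMO-3100 and 6.95, 8.13, 8.37, 7.71 and 8.83 with IMO-8400, 7.84-fold apart (FDR 0.000725), and was 3.81-fold above naive. Gm6377, an unnamed gene model, and Pdcd1lg2 were 6.58-fold and 2.61-fold higher with IMO-3100 (FDR 0.0136 and 0.0268). Acta2 was 2.07-fold lower with IMO-3100 (FDR 0.00476), at 10.98–11.77 against 11.97–12.71. In the type I interferon list, 1 of 22 genes was a DEG of IMO-8400 over naive against 21 of 22 with IMO-3100. None of the 22 was a DEG between the antagonists, where Irf7 differed by 0.77 ± 0.49 on the log2 scale (95% interval -0.26 to 1.81, FDR 0.384). The list median between the antagonists was 0.91, with list means of 11.61 to 12.45 with IMO-3100 and 10.60 to 11.64 with IMO-8400. The spread in this test was shared with the naive arrays, so the absence of calls does not show equal levels. The B cell, macrophage, neutrophil, IL-17-induced and hyperplastic epidermis lists also held no DEG between the antagonists.

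The remaining lists are given here by their counts. Over all 13909 genes tested, 5.7% were higher and 4.82% lower than naive, and several of the counts below lie near those shares. Of 16 NF-κB subunits and regulators 7 were higher than naive, against 10 in saline skin, and 3 were below saline. The JAK-STAT list, which carries signals of many cytokine receptors, had 5 of 21 genes higher, against 9 in saline skin, and 5 below saline. Of 15 innate inflammatory cytokines 2 were higher than naive, against 8 in saline skin, and 7 were below saline. In the matrix lists 1 of 20 collagen and matrix genes was higher and 3 were lower, and 1 of 16 proteases and inhibitors was higher and 1 lower, while 8 of those 16 were below saline. Of 16 endothelial and adhesion genes 1 was higher and 2 were lower. Complement had 3 of 14 genes higher and 1 lower, immediate early genes 3 of 17 higher, antioxidant and metallothionein genes 2 of 16 lower, sebaceous genes 1 of 15 lower, exocrine gland genes 2 of 7 higher and 1 lower, and nerve genes 1 of 4 lower.

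Lists without any DEG against naive were those of basal keratinocytes (0 of 11), cholesterol synthesis (0 of 17), skeletal muscle (0 of 19), the mitochondrial respiratory chain (0 of 21), glycolysis and hypoxia (0 of 18) and red blood cells (0 of 3), besides MHC class II. Their median changes lay between -0.23 and 0.22 on the log2 scale.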

How the data were processed

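Full-thickness mouse skin was hybridised to Affymetrix mouse4302 arrays, 1 mouse an array. The authors deposited log2 intensities made with GCRMA, with no version stated in the sources used here; per the study's methods arrays were also checked for quality and spatial defects. The table holds 45101 probe-sets, of which 34958 have 1 symbol, 932 several and 9211 none in the platform annotation. The number of arrays, 5 a group, limits the precision.

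Groups came from the sample labels. The values were used as deposited. The 30960 probe-sets that exceeded 2 on 3 or more arrays, with SD over 0.1, were fitted with limma 3.58.1 in R 4.3.3 as 4 group means over all 20 arrays, with Benjamini-Hochberg adjustment over all of them. The step was tested on simulated data. Each probe-set had 1 spread shared by the 4 groups. The naive arrays, which had the lowest correlations among themselves, entered it in every comparison, also in those without naive skin. A list gene was read from its probe-set with the highest mean. Per gene list, members called were counted and no list was tested.

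The members and lists were chosen with earlier results of these data known. Named genes followed a rule. It took the largest changes without overlap, up to 4 called and 2 returned genes a list, the largest changes with and without a call against saline, and genes the study names. Others are marked as chosen after their values were seen. Promoters came from RefSeq (GRCm38.p6). Alternatives changed the filter, floor, scaling, samples, variance prior, array weights, fold test and hair covariate and left out mice.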

Additional observations from a re-analysis of the deposited data

Results flagged for a closer look

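Single mice that stood far from the other 4 of their group were looked for with Dixon's test in 239 groups of 5 values, named genes and list means of naive or IMO-3100 mice with a range of at least 1 log2 unit. The test marked 34, and 22 of the 34 were naive mouse 16. About 1 in 20 independent groups would be marked by chance. These groups share the same mice, and list means include named genes, so no excess over chance can be read from the count. All values are log2 intensities, and no explanation was tested.

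Naive mouse 16 lay below the other naive mice for Ccl5 (3.17), Igk (3.15), Tlr7 (5.29), Gzma (3.10), Ccr6 (3.29), Il1f8 (7.07), Il1f9 (8.22) and Sprr2d (3.58). It was also the low value for Lce1f (10.89), Hrnr (11.88), Abca12 (6.59), Retnla (12.60), Cd209a (7.73), Npas2 (9.05) and Hlf (7.72), and it was the high value for Foxm1 (8.39). Among list means it was lowest for the IL-1 and IL-36 family (8.30), cytotoxic and NK cell genes (4.85), dendritic and Langerhans cell genes (6.15), MHC class II (9.69) and endothelial genes (7.98), and highest for cell cycle genes (10.64).

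The other marked naive values were Clec4e in mouse 19 (4.50), Defb3 in mouse 18 (3.33) and a dim probe-set of Spon1 in mouse 17 (4.91). In the IMO-3100 group mouse 6 stood low for Acod1 (9.30) and Clec4e (5.34) and high for the dim Ighm probe-set (5.08). IMO-3100 mouse 8 stood high for Cxcl3 (6.23), Cxcl5 (3.07) and a second probe-set of Plod2 (5.16), mouse 9 for Defb4 (4.78) and Krt6a (13.07), and mouse 7 for Lipg (11.96).

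Among named genes called against naive in IMO-3100 skin, 5 differed between the antagonists by limma's test. The log2 difference of IMO-3100 from IMO-8400 was 5.20 for Gpr31b, 2.97 for Lipg, 2.72 for Gm6377, 1.38 for Pdcd1lg2 and -1.05 for Acta2.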

How the results depend on the processing

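Scaling each array to a common 75th percentile, quantile normalization, no filter, a stricter filter, a floor of 4, a trended robust variance prior and array weights kept every count of DEGs within 1.5 times its value, and at most 5 of the 130 calls on named probe-sets were lost under any of these. Fitting the compared groups alone gave 1093 higher and 974 lower DEGs. It gave 633 probe-sets still higher and 665 still lower without a call against saline, 739 still lower in all, and lost 11 named calls. Fewer arrays then entered the spread, and against naive skin the naive arrays made up a larger part of it. Testing against a fold of 2 (treat) left 253 higher and 82 lower DEGs, 209 still higher and 66 still lower, and 202 and 66 of those without a call against saline, and lost 61 of the 130 named calls, 43 higher and 18 lower. Without naive mice 16 and 17, 757 were still higher, 573 of them without a call against saline, and type I interferon, interferon-γ and hair lists held 8, 2 and 6 called genes; 12 named calls were lost. With the hair covariate, planned for the probe-set counts and chosen for the lists after seeing the data, 805 were higher, 612 still higher and 457 of those without a call against saline; the lists held 0 type I interferon, 2 macrophage, 4 T cell, 4 cytotoxic, 2 endosomal Toll-like receptor, 1 interferon-γ, 1 hair and 2 melanocyte genes, and 43 named calls were lost. The covariate is the mean of 25 genes of the hair list, so the drop in that list was built in. The hair list mean ran from 3.13 to 12.74 in naive mice, 2.72 to 2.97 in IMO-3100 mice and 2.58 to 2.84 in saline mice. The slope of the covariate therefore rests mainly on the naive mice. The cause of the lost calls was not tested. No named call changed its direction under any alternative.

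Leaving out 1 mouse at a time gave 1224 to 1745 higher and 1234 to 1641 lower DEGs, 905 to 1343 still higher and 932 to 1275 still lower, and 706 to 1146 and 857 to 1176 of these without a call against saline. The called genes ran from 16 to 21 for type I interferon, 5 to 12 for interferon-γ (5 without naive mouse 16), 8 to 10 for macrophages, 7 to 9 for T cells, 6 to 9 for cytotoxic cells, 6 to 8 for endosomal receptors, 4 to 6 for the clock, 19 to 25 for hair and 6 to 9 for melanocytes, and stayed at 6, 7, 14 and 12 for B cell, neutrophil, IL-17-induced and hyperplastic epidermis genes. Each group holds 5 arrays, and values near the floor carry little information. No paired analysis was possible because the groups share no replicate numbers.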
